A study of Mus musculus with 12 samples.

Results

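The genes described here carry antigen presentation by class I and class II histocompatibility molecules and the response to interferon, in the cortex of mice that lack miR-137, a brain-enriched microRNA. They were chosen by name, with earlier results of these data known, so counts of calls among them describe the list and test nothing. Symbols of 39 genes were looked up in 3 pairwise tables of 23951 rows each, and 38 were found. Rnf213, a large ubiquitin ligase, is not analysed here. By role, 8 of the 38 belong to class I presentation, 5 to the immunoproteasome, 3 to class II presentation and 22 to the interferon-stimulated genes.

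RNA was sequenced from the dissected cortex of C57BL/6 mice of 3 genotypes: miR-137 knockout (KO), heterozygous miR-137/+ (Het) and wild type (WT), with 4 libraries each. The design text asks what miR-137 does in neurodevelopment. The labels do not give the age or sex of the animals, how the allele was made or which cells carry it, nor whether the 4 libraries per genotype are 4 animals. Titles number the libraries 1-1, 1-2, 2-1 and 2-2 in each genotype, so they may be nested pairs. The authors' p-values then measure the spread between libraries, which may be technical. Each table holds 1 pooled value per genotype in RPKM (reads scaled for transcript length and library depth), so no SD can be given, and the depth is unknown. "Rose" and "fell" are used only for genes with an adjusted p below 0.05 by the authors' own test. Where 2 adjusted p-values follow 3 levels, the first is for KO and the next for Het, each against WT. A log2 fold is computed on RPKM + 1, so changes of low genes appear smaller on it, whereas a fold is a plain ratio of RPKM. The KO and Het comparisons share the WT libraries.

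As background, nucleated cells cut proteins with the proteasome, move the peptides into the endoplasmic reticulum through the Tap1-Tap2 transporter and load them onto class I heavy chains paired with beta-2-microglobulin (B2m). Interferon swaps catalytic subunits of the proteasome for Psmb8, Psmb9 and Psmb10 and induces the PA28 activator (Psme1 and Psme2). Class II molecules present peptides taken up from outside and belong to professional antigen-presenting cells, which in brain are mostly perivascular and meningeal macrophages, dendritic cells and activated microglia. Type I interferon acts through a complex with Stat2 and Irf9 on the interferon-stimulated response element (ISRE) of promoters, and interferon gamma acts on the gamma-activated site (GAS). Neurons express little class I and microglia, endothelium and meninges more.

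The mature strand miR-137-3p is shown because its loss defines the genotypes, with its seed (bases 2 to 8) in capitals. RefSeq places it on GRCm38.p6 at chr3:118433901-118433923, plus strand. Beside it stand the stretches of 30 bases around its seed matches in member 3′ UTRs, read from the GENCODE M21 annotation of GRCm38, with the bases of the match in capitals.
mmu-miR-137-3p: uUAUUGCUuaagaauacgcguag
B2m, chr2:122152805-122152834: ctagatagctgAGCAATAAatcttcaataa
Gbp7, chr3:142547054-142547083: aaaaaaaaagtAGCAATAtaatgactcttc
The match begins at base 181 of a 3′ UTR of 448 bases in B2m and at base 491 of 3575 in Gbp7, both on the plus strand. In the longest annotated 3′ UTR of each gene, the 7 bases AGCAATA, which pair with the seed, were found in 2 of 39 members, B2m and Gbp7. Of 12823 genes tested in KO against WT with a 3′ UTR, 10.8% held them. Followed by A (AGCAATAA), the match was in B2m alone of the members, against 4.61% of those genes. The 3′ UTRs of the members were short, with a median of 464 bases against 1214 over the genes tested. A match is a description of sequence and not a tested site.

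Promoters were searched on both strands for the ISRE core GAAANNGAAA (reverse TTTCNNTTTC) and for the GAS motif TTCNNNGAA. RefSeq promoters of 300 bases around the start site (GRCm38.p6) were matched for 32 of the 39 members. Shown with ISRE core matches in capitals are the promoters of B2m (chr2:122147437-122147736, plus strand), Bst2 (chr8:71537423-71537722, minus strand) and Ifitm3 (chr7:141010695-141010994, minus strand), which fell in KO, and of Isg15 (chr4:156200769-156201068, minus strand) and Ifit3 (chr19:34583279-34583578, plus strand), which passed the test in neither comparison with WT.
B2m: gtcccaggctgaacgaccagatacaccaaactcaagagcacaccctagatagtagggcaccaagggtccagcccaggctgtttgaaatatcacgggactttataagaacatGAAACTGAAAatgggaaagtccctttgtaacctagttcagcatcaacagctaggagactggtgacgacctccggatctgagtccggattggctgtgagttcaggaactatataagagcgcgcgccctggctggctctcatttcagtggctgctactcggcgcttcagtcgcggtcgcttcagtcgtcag
Bst2: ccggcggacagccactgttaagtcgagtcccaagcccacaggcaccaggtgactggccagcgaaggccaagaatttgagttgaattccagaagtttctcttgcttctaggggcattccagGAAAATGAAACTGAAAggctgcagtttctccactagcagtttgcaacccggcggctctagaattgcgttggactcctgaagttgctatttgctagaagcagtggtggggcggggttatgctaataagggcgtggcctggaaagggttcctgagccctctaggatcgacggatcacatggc
Ifitm3: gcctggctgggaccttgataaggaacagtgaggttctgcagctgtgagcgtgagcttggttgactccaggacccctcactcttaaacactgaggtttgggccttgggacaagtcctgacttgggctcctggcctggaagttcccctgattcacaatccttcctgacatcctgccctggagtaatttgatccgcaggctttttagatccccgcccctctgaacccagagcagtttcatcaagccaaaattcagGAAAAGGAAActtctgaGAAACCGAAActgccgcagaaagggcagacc
Isg15: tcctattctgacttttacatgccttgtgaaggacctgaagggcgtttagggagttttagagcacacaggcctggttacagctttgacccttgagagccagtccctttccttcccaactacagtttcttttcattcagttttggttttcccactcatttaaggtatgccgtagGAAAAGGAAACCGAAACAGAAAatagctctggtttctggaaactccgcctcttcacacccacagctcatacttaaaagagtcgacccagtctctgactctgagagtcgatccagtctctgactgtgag
Ifit3: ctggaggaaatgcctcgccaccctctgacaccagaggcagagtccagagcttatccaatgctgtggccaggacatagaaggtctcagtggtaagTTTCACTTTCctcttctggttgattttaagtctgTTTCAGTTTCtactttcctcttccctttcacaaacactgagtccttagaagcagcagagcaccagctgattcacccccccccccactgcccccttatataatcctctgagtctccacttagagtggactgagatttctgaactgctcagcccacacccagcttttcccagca
Counted from 1 at the start site, with negative positions before it, the match of B2m begins at -139. Those of Bst2 begin at -130 and -124 and overlap each other, and those of Ifitm3 begin at 3 and 20. The 3 of Isg15 overlap at -78, -72 and -66, and those of Ifit3 begin at -156 and -122. An ISRE core was found in 14 of the 32 members, against 3.99% of 27025 genes with a promoter. Of the 14, 11 are among the 20 interferon-stimulated members with a promoter, and the others are B2m, H2-T23 and Psme1. The GAS motif was found in 7 of the 32 members, against 9.55% of all genes. Its carriers are Psmb8, Bst2, Irf1, Ifit2, Ifitm3, Ifi35 and Gbp7, and in Bst2 and Ifitm3 it overlaps an ISRE core match. No match in H2-K1 or H2-D1 says only that these exact letters are not in these windows.

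**Figure D1:**
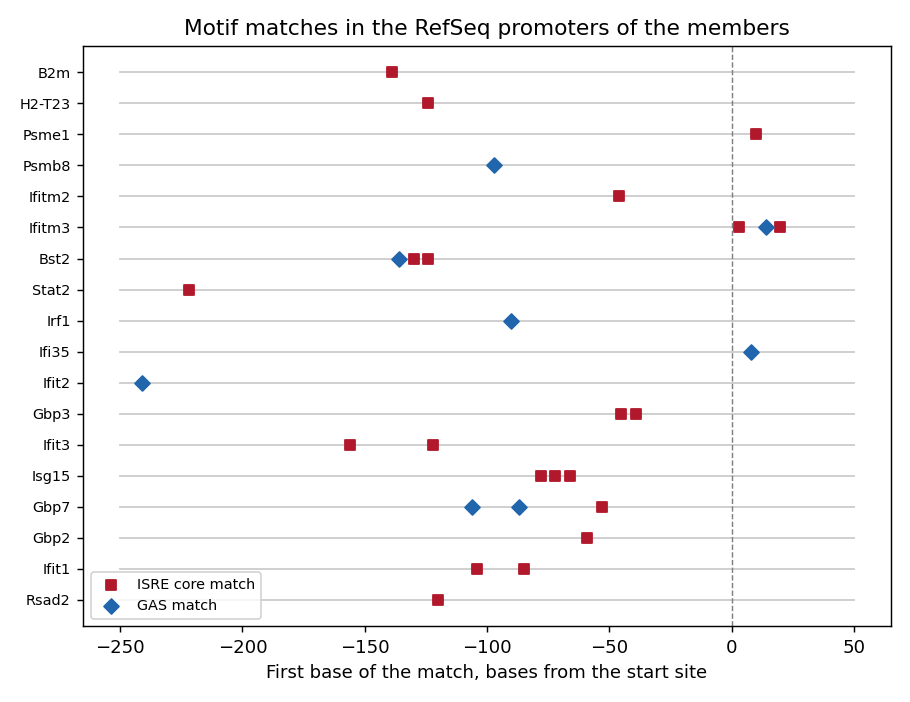
Positions of ISRE core matches (red squares) and GAS matches (blue diamonds) in the RefSeq promoters of the members that hold any, in bases from the start site (dashed line at 0). Grey lines span the 300 bases searched; Bst2, Ifitm3 and Gbp7 hold both motifs.

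In KO cortex, H2-K1, H2-D1, B2m, Cd74, Bst2, Ifitm3, Ifi27 and Gbp2 fell relative to WT, and the PA28 subunit Psme2 rose. Of the 38 members the authors tested 33 in KO against WT, and 8 fell and 1 rose, where 7.68% of 14059 genes tested fell and 6.72% rose. Het against WT also had 33 members tested, and 6 fell and 0 rose, where 5.06% of 14159 genes tested fell and 3.95% rose. Between KO and Het, 0 of 31 members tested rose or fell by the authors' test, where 1.87% of 14062 genes tested were called (0.917% higher and 0.953% lower), and 2 members had an unadjusted p below 0.05, where 9.81% of genes did. In KO against WT 15 members had an unadjusted p below 0.05, where 26.5% of genes did, and in Het against WT 14 did, where 19.5% of genes did. The median log2 fold of the members tested was -0.24 in KO and -0.29 in Het, both against WT, beside medians of 0.01 over all genes tested in each table. WT held the highest of the 3 levels in 30 of the 38 members, with Het lowest in 15 of those and KO lowest in the other 15. This order includes members not called or not tested, and was not counted over all genes.

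**Figure D2:**
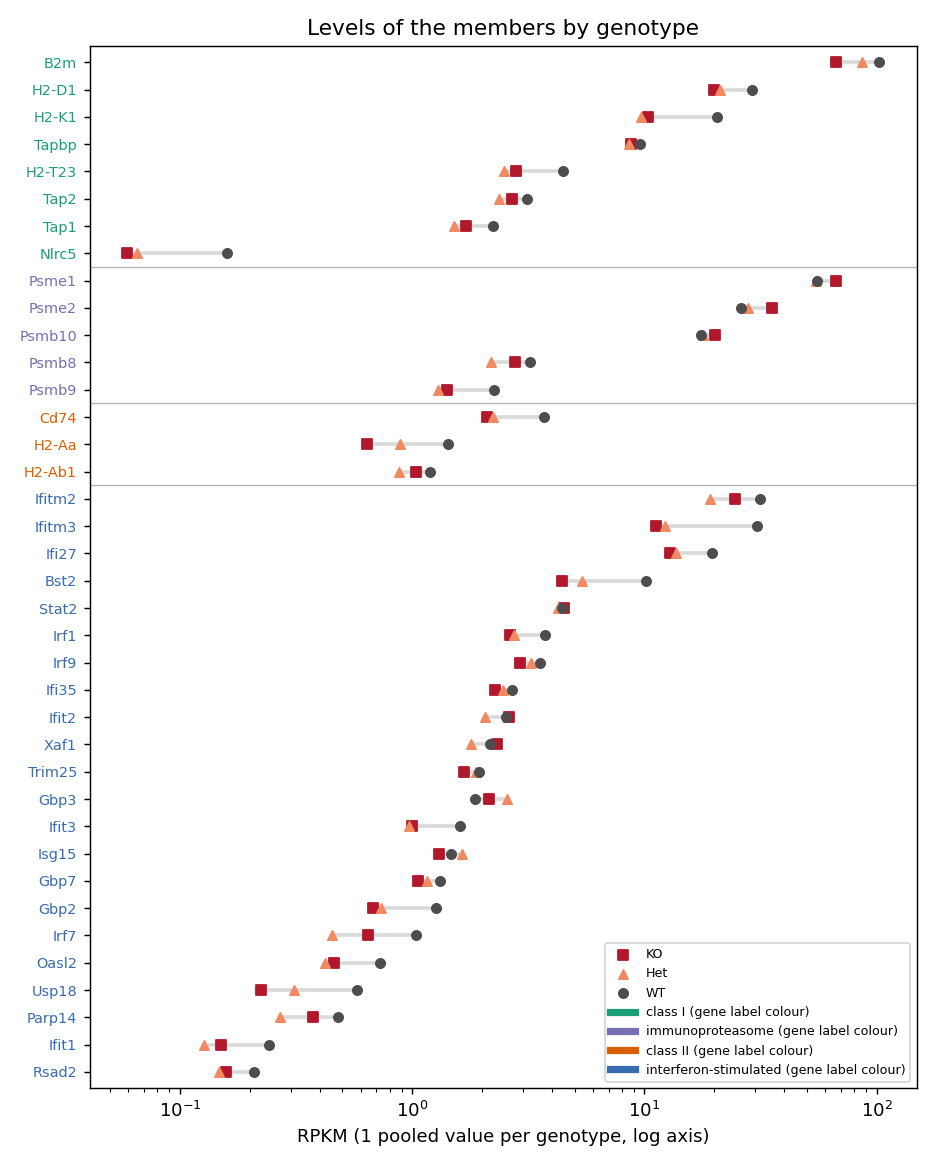
RPKM of the 38 members in KO (squares), Het (triangles) and WT (circles), 1 pooled value per genotype on a log axis, grouped by role and ordered by the WT level. B2m leads with 67.0, 86.3 and 102 RPKM in KO, Het and WT, and WT is highest in 30 members.

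The classical class I heavy chains H2-K1 and H2-D1 fell in both mutant genotypes. H2-K1, a classical heavy chain that presents peptides to CD8 T cells, had 10.3 RPKM in KO, 9.68 in Het and 20.5 in WT, per the authors' deposited table. KO was 1.98-fold lower than WT (adjusted p 0.000987 per the authors' deposited table) and Het 2.11-fold lower (adjusted p 0.00135 per the authors' deposited table). H2-D1, the other classical heavy chain, had 19.9 RPKM in KO, 21.2 in Het and 29.0 in WT per the authors' deposited table. It fell by 0.52 on the log2 scale in KO (adjusted p 0.000987 per the authors' deposited table) and by 0.43 in Het (adjusted p 0.0114). KO and Het lay close together for both genes and WT stood above them. H2-T23, the nonclassical heavy chain Qa-1 that NK cell receptors read, had 2.79 RPKM in KO, 2.47 in Het and 4.44 in WT per the authors' deposited table, with adjusted p of 0.142 for KO and 0.129 for Het against WT. Summed, the 3 heavy chains gave 33.0 RPKM in KO, 33.4 in Het and 53.9 in WT, and H2-K1 made up 31.3%, 29.0% and 37.9% of these sums.

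B2m, the invariant light chain of class I, fell in KO to 67.0 RPKM, against 102 in WT, per the authors' deposited table (1.53-fold lower, adjusted p 0.000987). In Het it stood at 86.3 RPKM, against 102 in WT, per the authors' deposited table (adjusted p 0.241). Het thus lay between KO and WT, and KO against Het gave an adjusted p of 0.192 at an unadjusted p of 0.00755. B2m exceeded the summed heavy chains 2.03-fold in KO, 2.59-fold in Het and 1.89-fold in WT. B2m is the member that holds the 8-base match to miR-137-3p shown above.

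None of the peptide loading genes passed the test. Tap1, a subunit of the peptide transporter, had 1.71 RPKM in KO, 1.51 in Het and 2.23 in WT per the authors' deposited table (adjusted p 0.235 for KO and 0.140 for Het). Its partner Tap2 stood at 2.70, 2.38 and 3.12 RPKM in KO, Het and WT per the authors' deposited table (adjusted p 0.561 and 0.340). Tapbp, the tapasin that bridges transporter and heavy chain, had 8.75, 8.54 and 9.58 RPKM in KO, Het and WT (adjusted p 0.626 and 0.630 per the authors' deposited table). Nlrc5, the transactivator of class I genes, was listed at 0.0594, 0.0654 and 0.160 RPKM in KO, Het and WT and was not tested by the authors. Over the 7 class I members tested, 3 fell in KO and 2 in Het, where 7.68% and 5.06% of all genes tested fell. Their median log2 fold was -0.52 in KO and -0.37 in Het, and all 7 were below WT in both. Without H2-D1 and H2-T23, of whose 50-base windows 14.3% and 28.8% also occur in other genes, the KO median was -0.26. H2-K1, which shares 8.79% of its windows, was kept in that median, under the limit of 10%.

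The immunoproteasome did not move as a block. Psme2, the beta subunit of PA28, rose in KO to 35.4 RPKM, against 25.9 in WT, per the authors' deposited table (1.37-fold, adjusted p 0.0258). In Het it had 27.9 RPKM, against 25.9 in WT (adjusted p 0.822 per the authors' deposited table), and KO against Het gave an adjusted p of 0.417. The sequence of Psme2 overlaps that of the copy Psme2b in 59.3% of its windows of 50 bases, and Psme2b itself was listed at 0.0646 RPKM in KO and 0.159 in WT. Psme1, the alpha subunit, had 66.8 RPKM in KO, 54.7 in Het and 55.5 in WT per the authors' deposited table (adjusted p 0.211 for KO and 0.975 for Het). Psmb10, an induced catalytic subunit, stood at 20.2, 17.9 and 17.6 RPKM in KO, Het and WT per the authors' deposited table (adjusted p 0.426 and 0.967).

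The remaining catalytic subunits were low and lay below WT in both mutants. Psmb8 had 2.76 RPKM in KO, 2.18 in Het and 3.22 in WT per the authors' deposited table (adjusted p 0.653 and 0.320). Psmb9 had 1.41, 1.30 and 2.24 RPKM in KO, Het and WT per the authors' deposited table (adjusted p 0.267 and 0.330). Psmb9 and Tap1 start next to each other in opposite directions, so that their promoter windows overlap. The median log2 fold of the 5 immunoproteasome members was 0.19 in KO and -0.02 in Het against WT. Without Psme1 and Psme2, which share windows with copies elsewhere, it was -0.16 in KO and -0.41 in Het. Called members numbered 1 of 5 in KO (higher) and 0 of 5 in Het, where 0 also had an unadjusted p below 0.05. Over all genes tested 6.72% rose in KO and 3.95% in Het.

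Each induced catalytic subunit stood far below its constitutive counterpart on the RPKM scale. Psmb8 amounted to 2.13% of Psmb5 in KO, 1.56% in Het and 2.70% in WT. Psmb9 reached 1.22% of Psmb6 in KO, 1.17% in Het and 2.33% in WT. Psmb10 reached 8.64% of Psmb7 in KO, 8.34% in Het and 8.88% in WT. The counterparts Psmb5, Psmb6 and Psmb7 and the other activators Psme3 and Psme4 held 0 calls in any of the 3 comparisons, with 2 unadjusted p below 0.05 in KO, 1 in Het against WT and 0 in KO against Het.

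**Figure D3:**
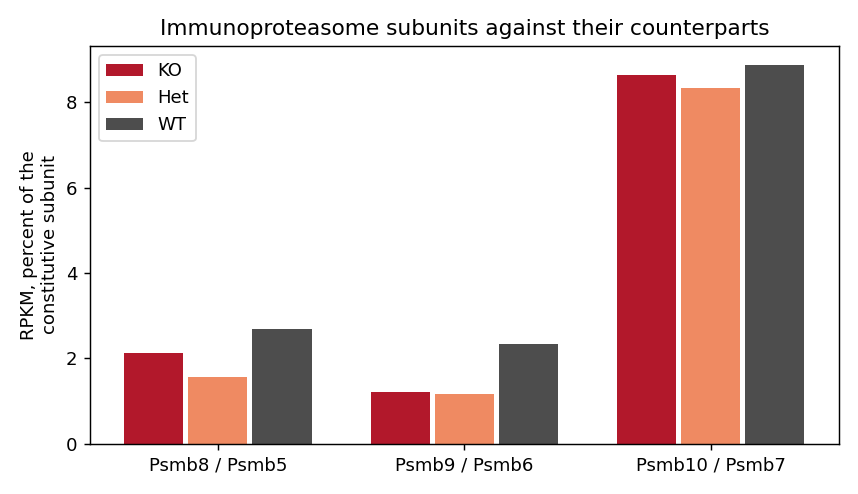
Level of each induced catalytic subunit as a percent of its constitutive counterpart in RPKM, in KO (red), Het (orange) and WT (grey), from 1 pooled value per genotype. Psmb9 stood at 1.22%, 1.17% and 2.33% of Psmb6 in KO, Het and WT, while Psmb10 stayed between 8.34% and 8.88% of Psmb7.

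Class II genes were expressed at a low level. Cd74, the invariant chain that chaperones class II molecules, fell in KO to 2.09 RPKM, against 3.71 in WT, per the authors' deposited table (1.77-fold lower, adjusted p 0.0358). Het had 2.22 RPKM, against 3.71 in WT (adjusted p 0.150 per the authors' deposited table). H2-Aa, the class II alpha chain, stood at 0.636 RPKM in KO, 0.882 in Het and 1.43 in WT per the authors' deposited table (adjusted p 0.0802 for KO and 0.467 for Het). H2-Ab1, the beta chain, had 1.04, 0.879 and 1.20 RPKM in KO, Het and WT per the authors' deposited table (adjusted p 0.813 and 0.699). All 3 lay below WT in both mutants, and 1 of 3 fell in KO, where 7.68% of all genes tested fell. In Het 0 of 3 fell, where 5.06% of all genes tested did, and 1 had an unadjusted p below 0.05. The median log2 fold of the 3 was -0.57 in KO and -0.37 in Het.

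Among the interferon-stimulated genes, Bst2, Ifitm3 and Ifi27 fell in both mutants, Gbp2 in KO and Ifitm2 in Het. KO against Het called neither Gbp2 nor Ifitm2. Ifitm3, which blocks fusion of viruses with endosomes, had 11.2 RPKM in KO, 12.3 in Het and 30.6 in WT per the authors' deposited table. It was the lowest member by log2 fold in both mutants, at -1.37 in KO (2.73-fold lower, adjusted p 0.000987) and -1.25 in Het (2.49-fold lower, adjusted p 0.00135 per the authors' deposited table). Ifitm2, a paralog of the same family, fell in Het to 19.2 RPKM, against 31.5 in WT, per the authors' deposited table (1.65-fold lower, adjusted p 0.00520). In KO it had 24.4 RPKM, against 31.6 in WT (adjusted p 0.136 per the authors' deposited table), and KO against Het gave an adjusted p of 0.590. The family pair summed to 35.6 RPKM in KO, 31.4 in Het and 62.2 in WT, with Ifitm2 at 68.6%, 60.9% and 50.8% of it. Of the 50-base windows of Ifitm2 48.5% also occur in transcripts of other genes, and of Ifitm3 63 of 629 windows, so reads of the family may have been split by the authors' counting.

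Bst2, the tetherin that holds budding viruses on the cell surface, had 4.40 RPKM in KO, 5.38 in Het and 10.1 in WT per the authors' deposited table. KO was 2.30-fold lower (adjusted p 0.000987 per the authors' deposited table) and Het 1.88-fold lower (adjusted p 0.0188). Ifi27 stood at 12.9 RPKM in KO, 13.6 in Het and 19.6 in WT per the authors' deposited table, lower by 1.52-fold in KO (adjusted p 0.00506) and 1.44-fold in Het (adjusted p 0.0446). Gbp2, an interferon-induced GTPase that attacks membranes of intracellular pathogens, fell in KO to 0.679 RPKM, against 1.26 in WT, per the authors' deposited table (adjusted p 0.0309). Het had 0.734 RPKM of Gbp2, against 1.26 in WT (adjusted p 0.156 per the authors' deposited table). For Ifitm3, Bst2, Ifi27 and Gbp2 both mutants lay below WT, with KO listed lowest. KO against Het called none of them (adjusted p 0.959, 0.864, 0.981 and 0.988 by the authors' test), so KO and Het are not ordered.

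The transcription factors of the interferon response did not pass the test. Stat2, a transcription factor of type I signalling, had 4.50 RPKM in KO, 4.26 in Het and 4.41 in WT per the authors' deposited table (adjusted p 0.940 and 0.935). Irf9, the DNA-binding subunit of that complex, had 2.90, 3.26 and 3.54 RPKM in KO, Het and WT per the authors' deposited table (adjusted p 0.372 and 0.865). Irf1, an early factor downstream of interferon gamma, stood at 2.64, 2.74 and 3.72 RPKM in KO, Het and WT per the authors' deposited table (adjusted p 0.103 and 0.264). Irf7, the amplifier of type I interferon, had 0.645, 0.451 and 1.03 RPKM in KO, Het and WT per the authors' deposited table (adjusted p 0.207 and 0.0984). Stat2 was listed highest in KO, and Irf1, Irf7 and Irf9 were listed highest in WT.

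Ifit3, Ifit2, Isg15 and Oasl2 were tested and not called. Ifit3, a repeat protein of the Ifit family, had 1.00, 0.971 and 1.61 RPKM in KO, Het and WT per the authors' deposited table (adjusted p 0.110 and 0.184). Of its windows 51.2% are shared with Ifit3b. Ifit2, a relative in the same cluster, had 2.62, 2.05 and 2.53 RPKM in KO, Het and WT per the authors' deposited table (adjusted p 0.914 and 0.445). Isg15, the ubiquitin-like modifier, stood at 1.30, 1.64 and 1.47 RPKM in KO, Het and WT per the authors' deposited table (adjusted p 0.865 and 0.930). Oasl2, of the oligoadenylate synthase-like family, had 0.460, 0.421 and 0.730 RPKM in KO, Het and WT per the authors' deposited table (adjusted p 0.168 and 0.224). Ifit1, Usp18 (which removes Isg15 from proteins), Rsad2 (viperin) and Parp14 were at most 0.579 RPKM in every genotype and were not tested by the authors. Usp18 was listed at 0.223 RPKM in KO, 0.310 in Het and 0.579 in WT.

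The other members lay within 1.38-fold of WT, and none passed the test. Gbp3, a GTPase relative of Gbp2, was listed above WT, at 2.14 RPKM in KO, 2.57 in Het and 1.86 in WT (adjusted p 0.624 and 0.258 per the authors' deposited table). Gbp7, which holds the 7-base match to miR-137-3p, had 1.06, 1.16 and 1.32 RPKM in KO, Het and WT (adjusted p 0.345 and 0.750 per the authors' deposited table). Xaf1, a pro-apoptotic protein, had 2.32, 1.80 and 2.16 RPKM in KO, Het and WT (adjusted p 0.838 and 0.672 per the authors' deposited table). Trim25, the ubiquitin ligase that acts on RIG-I, had 1.67, 1.88 and 1.94 RPKM (adjusted p 0.475 and 0.953 per the authors' deposited table). Ifi35, a leucine zipper protein, had 2.28, 2.46 and 2.68 RPKM in KO, Het and WT (adjusted p 0.639 and 0.910 per the authors' deposited table). Of the 18 interferon-stimulated members tested, 4 fell in KO and 4 in Het, where 7.68% and 5.06% of all genes tested fell. Their median log2 folds were -0.23 and -0.25.

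**Figure D4:**
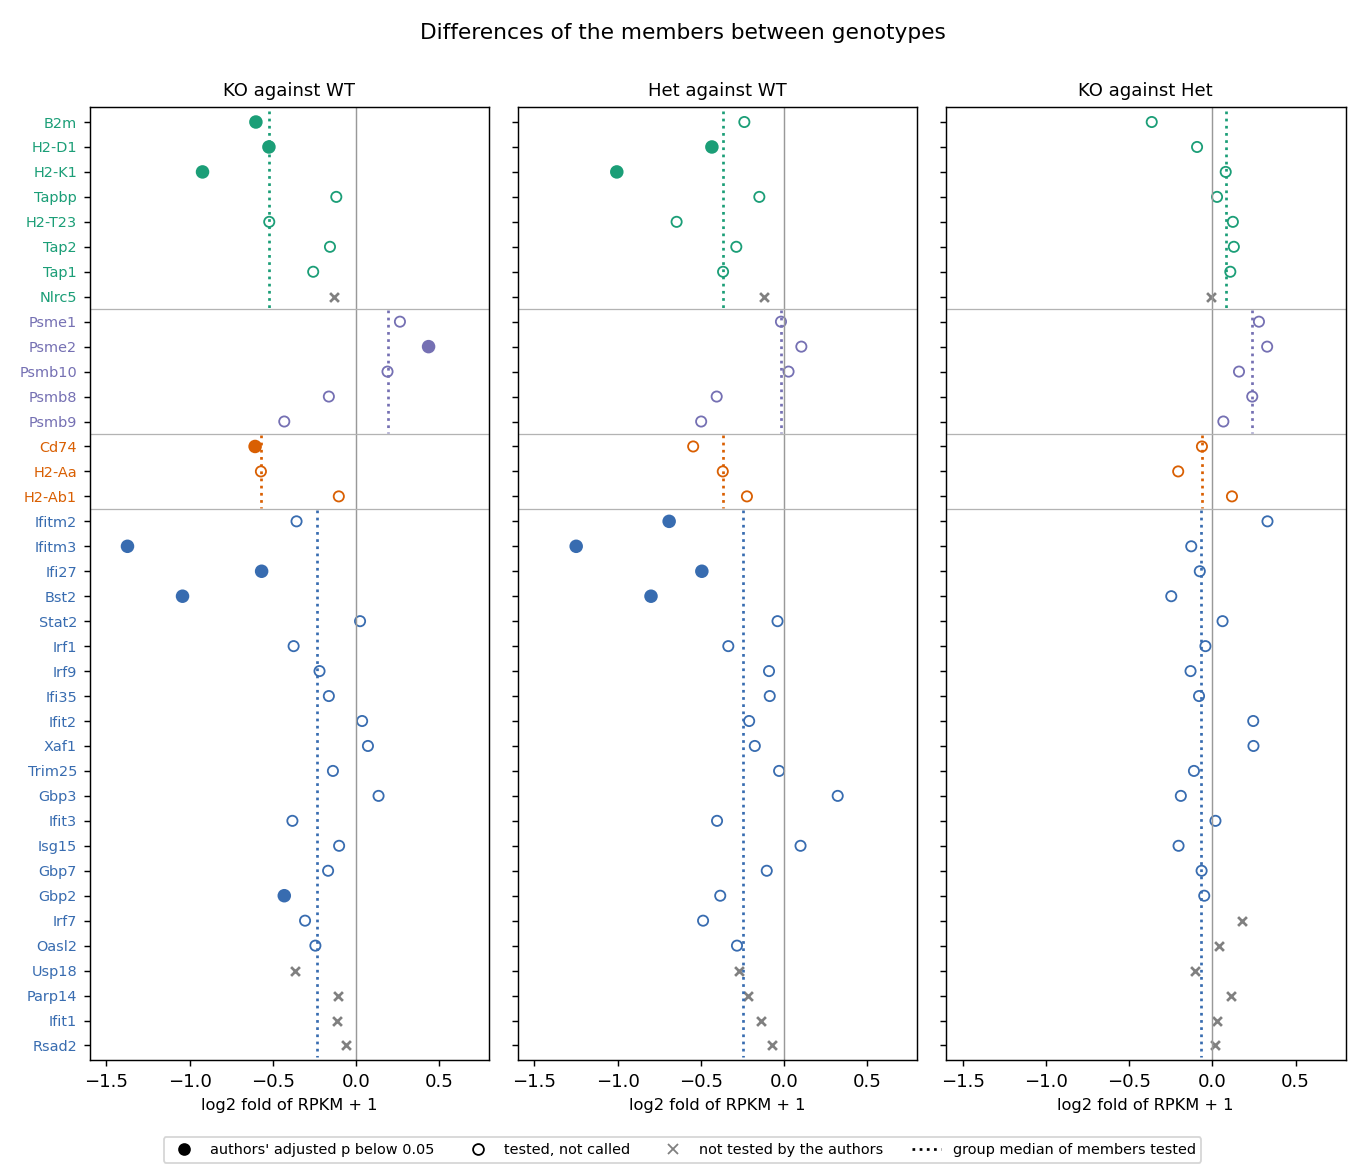
Log2 fold of RPKM + 1 of each member in KO against WT, Het against WT and KO against Het, coloured by role as in the plot of levels (filled, authors' adjusted p below 0.05; open, tested and not called; crosses, not tested by the authors; dotted lines, medians of the members tested). Ifitm3 lies farthest below 0 in both comparisons with WT, and no member is filled in KO against Het.

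The 4 roles differed in their values, and the difference between roles was not tested. Class I fell in 3 of 7 members in KO, class II in 1 of 3, interferon-stimulated genes in 4 of 18 and the immunoproteasome in 0 of 5, against a background of 7.68% of genes lower. Members near the threshold in KO included H2-Aa (adjusted p 0.0802 by the authors' test), Irf1 (0.103) and Ifit3 (0.110) outside it. Inside it were Cd74 (0.0358), Gbp2 (0.0309) and Psme2 (0.0258). Among tested members with an ISRE core 4 of 12 fell in KO, and among those with a promoter and no match 2 of 17 fell and 1 rose. In Het these counts were 3 of 12 and 2 of 17 lower, where 5.06% of all genes tested fell. Cd74, which fell in KO, and Ifi27, which fell in both mutants, had no matched promoter and enter none of these counts. In KO against Het the members with an unadjusted p below 0.05 were B2m and Psme2.

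Other genes of the pathways gave the context. Interferon genes themselves were at or near 0, with a summed level over 7 listed genes of 0.0234 RPKM in KO, 0.0322 in Het and 0 in WT, and the authors tested none of them. Among 16 tested receptors and signalling genes 2 fell in each mutant, and of 10 tested nucleic acid sensing genes 1 did. With lists of this size these counts lie near the 7.68% (KO) and 5.06% (Het) of all genes tested that fell, so nothing is read from them about the lists. The feedback inhibitor Socs3 had 1.11 RPKM in KO, 1.02 in Het and 5.09 in WT (adjusted p 0.000987 and 0.00135 per the authors' deposited table). Ifngr1, the ligand-binding chain of the interferon gamma receptor, had 8.12, 8.70 and 12.6 RPKM in KO, Het and WT (adjusted p 0.000987 and 0.00841 per the authors' deposited table). Among the sensing genes Tlr7, the endosomal sensor of single-stranded RNA, fell in both, to 1.48 RPKM in KO and 1.72 in Het, against 3.0 in WT (adjusted p 0.000987 and 0.00602 per the authors' deposited table).

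Further interferon-stimulated genes fell in 10 of 32 tested in KO and in 4 of 33 tested in Het, with none higher. Over all genes tested 7.68% fell in KO and 5.06% in Het. The median log2 folds of the list were -0.24 and -0.19. Ifitm1, the paralog of Ifitm2 and Ifitm3, stood at 2.39 RPKM in KO, 3.42 in Het and 15.4 in WT, 6.42-fold and 4.49-fold lower (adjusted p 0.000987 and 0.00135 per the authors' deposited table). Slfn2, which restrains immune cell proliferation, had 0.639, 0.644 and 2.48 RPKM in KO, Het and WT (adjusted p 0.000987 and 0.00343 per the authors' deposited table). Lgals3bp, a secreted galectin ligand, had 3.73, 3.66 and 7.61 RPKM in KO, Het and WT (adjusted p 0.000987 and 0.00135 per the authors' deposited table). Ccl5, a chemokine of T cells and macrophages, was listed at 0 in KO and at 0.988 RPKM in WT (adjusted p 0.000987 per the authors' deposited table). Ifi30, a lysosomal reductase that prepares antigens for class II, fell in both mutants and had 8.75 RPKM in KO, 7.52 in Het and 16.3 in WT (adjusted p 0.000987 and 0.00135 per the authors' deposited table). Of 10 other class I genes tested, and of 7 (KO) or 6 (Het) other class II genes, 0 were called in either mutant, with 1 (KO) and 2 (Het) unadjusted p below 0.05 in the class I list and 0 in the class II list.

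Marker lists of other cells differed between genotypes, some mostly lower and some in both directions, and their part in the results was not tested. As background, 7.68% of all genes tested fell and 6.72% rose in KO against WT, and 5.06% fell and 3.95% rose in Het. In bulk cortex fewer cells of a type, less RNA per cell and a different share of neighbouring tissue in the dissection cannot be told apart. The 8 perivascular macrophage markers summed to 12.2 RPKM in KO, 12.4 in Het and 20.4 in WT, with 5 of 7 tested lower in KO and 3 of 7 in Het. Mrc1, the mannose receptor of these macrophages, had 1.68, 1.98 and 3.90 RPKM in KO, Het and WT per the authors' deposited table. The 16 microglia markers summed to 411, 434 and 541 RPKM in KO, Het and WT and moved in both directions, with 3 higher and 6 lower in KO and 4 higher and 5 lower in Het. Of these, the purinergic receptor P2ry12 had 31.3, 41.1 and 20.7 RPKM and the complement gene C1qa 47.6, 42.2 and 71.1 RPKM in KO, Het and WT per the authors' deposited table.

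The 12 endothelial markers summed to 123 RPKM in KO, 115 in Het and 136 in WT, with 1 higher and 3 lower in KO and 1 higher and 4 lower in Het. The interferon-responsive surface proteins Ly6a and Ly6c1 were among the lower ones, Ly6a at 6.27, 6.11 and 17.3 RPKM in KO, Het and WT per the authors' deposited table, while the tight junction gene Cldn5 had 48.2, 39.5 and 32.4. Of 8 neutrophil markers, summed at 3.96 RPKM in KO, 1.35 in Het and 67.6 in WT, 2 of 4 tested fell in KO and 3 of 4 in Het, and Ngp, Retnlg and Mmp8 were listed at 0 in Het. Dendritic cell markers summed to 5.96, 4.74 and 6.94 RPKM in KO, Het and WT, with 0 of 2 tested called, 1 with an unadjusted p below 0.05 in KO and 2 in Het, and Cd209a at 0 in KO. Of 15 lymphocyte markers 3 were tested and Cd4 rose in both mutants, with 4.36, 3.5 and 0.190 RPKM in KO, Het and WT per the authors' deposited table, while 11 in KO, 11 in Het and 9 in WT stood below 0.1 RPKM, among them all of Cd3d, Cd3e, Cd3g and Cd8a, and Nkg7 was listed at 0 in both mutants and Ncr1 in all genotypes.

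Markers of other tissue differed as well, and the part of dissected tissue in the member differences was not tested. The 10 choroid plexus markers summed to 91.1 RPKM in KO, 295 in Het and 2083 in WT, with 9 of 10 lower in each mutant. Ttr, the most abundant of them, supplied most of these sums, and the other 9 summed to 7.55, 13.9 and 55.3 RPKM in KO, Het and WT. The 10 meningeal fibroblast markers summed to 78.0, 59.7 and 106 RPKM in KO, Het and WT, with 3 of 10 lower in KO and 5 of 10 in Het. Dcn alone had 28.5, 5.94 and 31.9 RPKM, and the order of KO and Het in these sums rests on it. It was the only 1 of the 10 called in KO against Het (adjusted p 0.00517 by the authors' test). Markers of striatal projection neurons, 9 of 9 higher in each mutant, summed to 450 RPKM in KO, 441 in Het and 55.5 in WT. The 10 markers of cortical excitatory neurons were all present and summed to 1267, 1423 and 1653 RPKM in KO, Het and WT. Camk2a and Slc17a7 supplied most of these sums. Of the 10, 1 was higher and 1 lower in KO, and 2 were higher and 1 lower in Het. Their median log2 fold was 0.04 in KO and 0.10 in Het, with 5 of 10 below WT in KO and 4 in Het. Mir137, the targeted gene, is at 0 RPKM in every genotype, WT included, so its row checks none of the labels.

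**Figure D5:**
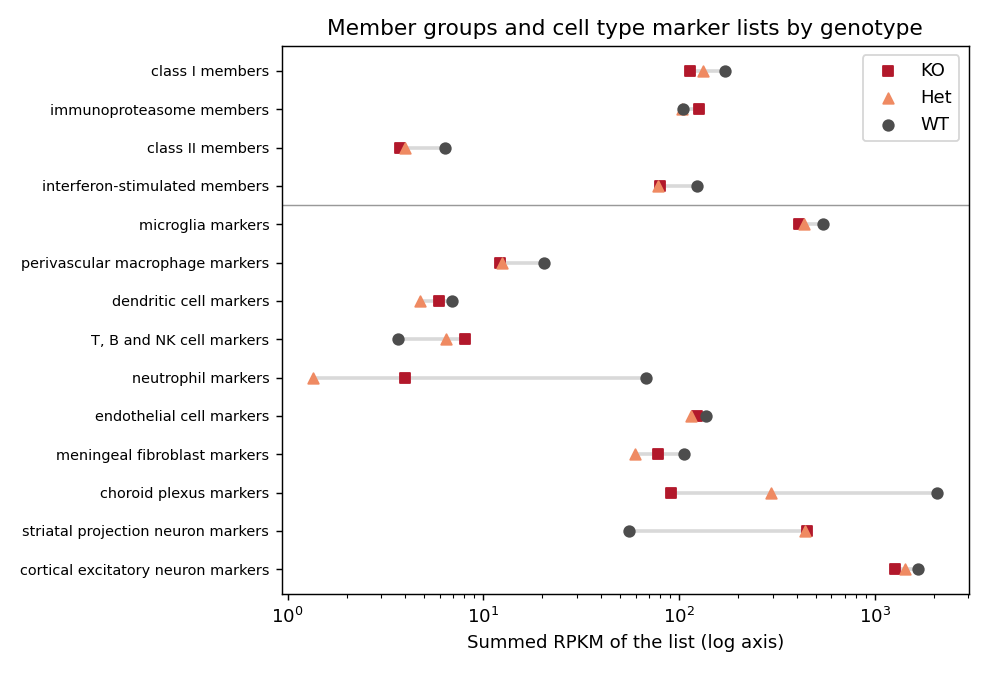
Summed RPKM of the 4 member groups (top) and of 10 lists of cell type markers in KO (squares), Het (triangles) and WT (circles), on a log axis. WT is the highest genotype in each list but the immunoproteasome, the lymphocyte markers and the striatal markers. Sums follow the most abundant genes. These are Camk2a and Slc17a7 among the cortical excitatory markers, and Cd4 among the lymphocyte markers in KO and Het.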

How the data were processed

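Cortex RNA of 12 libraries (4 per genotype, grouped by their titles) was summarised by the authors. Per the submitters' processing notes, CASAVA 1.4, TopHat2 2.0.13, Cuffdiff 2.2.1 and the build mm9 were used; the sources used here give neither their roles nor the strand setting or annotation. The authors deposited 3 pairwise tables with 1 RPKM value per genotype per gene, per the file headers. Each deposited table adds the authors' p-value and q-value (called adjusted p here). Genes given the highest possible p were taken as untested, because q matches Benjamini-Hochberg adjustment of the remaining p-values. The authors' log2 fold column holds error cells and was left unused.

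Members were found by exact symbol. Here were computed folds, log2(RPKM + 1) differences, counts of calls (authors' q below 0.05) and medians over members tested. No expression test was run, as 1 value per genotype has no spread; the authors' calls were used instead. Levels set across 3 genotypes take KO and WT from their own table and Het from the table with WT; a genotype's member values differed between tables by at most 0.715%. Columns without a genotype numbered 0. Windows of 50 bases shared with other genes were counted in GENCODE M21 transcripts. Members and lists were chosen with earlier results of these data known. Other pathway genes were named as the up to 4 called per list and comparison with the smallest adjusted p, ties by larger absolute log2 fold. Only the counting of calls, the medians and the Benjamini-Hochberg adjustment were checked on simulated data, with changes and p-values set beforehand. Computation was in Python 3.11.15 with pandas 2.3.3 and numpy 2.4.6; matplotlib 3.10.9 drew the figures.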

Additional observations from a re-analysis of the deposited data

How the results depend on the processing

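No paired analysis was possible because each genotype has 1 pooled value per table, and for the same reason no library could be left out. Of 18 recomputed counts of called members whose reported count was above 0, 13 stayed within 1.5 times of it and 5 moved. Of 69 recomputed medians 59 moved by at most 0.1, but many of these could hardly move, so their number does not measure robustness. Recentring subtracted all-gene medians of only 0.007 (KO against WT), 0.008 (Het against WT) and 5.2e-05 (KO against Het). Some other settings left every tested member of a group in and so repeated the reported median. The single member higher in KO against WT, Psme2, left 0 at an adjusted p of 0.01, at an absolute log2 fold of at least 0.5, and without the 8 members that share over 10% of windows (an alternative chosen after seeing the data). The 6 members lower in Het became 3 at an adjusted p of 0.01 and 3 without members sharing windows. Ifitm3 was among those left out, at 10.02% of its windows, while H2-K1 was kept, at 8.79%. Without the members sharing over 10% of windows the KO medians were -0.26 for class I and -0.16 for the immunoproteasome, and the Het median of the immunoproteasome was -0.41. With every class I member listed, tested or not, the KO median was -0.39. A pseudocount of 0.1 gave class II medians of -0.80 in KO and -0.64 in Het, and -0.36 for interferon-stimulated genes in Het. At a mean of at least 5 RPKM the interferon-stimulated medians were -0.80 in KO and -0.75 in Het, and the class I median of KO against Het was -0.031, where 0.08 was reported. Fewer members enter under that minimum. Low members of under 1 RPKM were mostly untested, and the depth behind them is unknown.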
